A study of Mus musculus with 5 samples.

Results

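Heat shock genes were read out in mouse gut tissue after aspirin, with or without the mucosal protective drug teprenone or the lactic acid bacterium LG21. The rule named 10 genes of the heat shock response, for which teprenone is the proposed inducer, and took for each the probe set that names that gene alone, the one with the highest mean over 5 arrays where there were several. Such a probe set was present for 8 of the 10 genes, out of 19938 genes measured in all. These were Hspa1a, Hspa8, Hsp90aa1, Hspb1, Hsph1, Dnajb1, Hspd1 and Hspe1. Hsp90ab1, a constitutive HSP90, and Hsf1, the transcription factor of the response, are not analysed here. The 10 genes were listed under the label cytosolic, but Hspd1 and Hspe1 encode chaperonins of the mitochondrial matrix and Hsf1 a nuclear factor.

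The mice were males of the outbred stock ddY, 5 weeks old, and the labels name no engineered allele. Each group had oral doses of a pair of agents 0.5 h apart, and gut was taken 4 h after the last. GA+GA received gum arabic, the vehicle, at both times and served as control. LG21+GA received Lactobacillus gasseri OLL2716 and gum arabic, GA+Asp gum arabic and aspirin, Tep+Asp teprenone and aspirin, and LG21+Asp the same Lactobacillus strain and aspirin. The agent named first is taken here as the one given first, and no source used here gives the doses. RNA came from part of the gut, taken whole, and was hybridised to 1 Affymetrix Mouse Gene 1.0 ST array per group. No source used here says whether an array holds 1 mouse or several. With 1 array per group there was no replicate and no test, so no p-value or error is given and every difference below is one between single arrays. No group received teprenone without aspirin, so teprenone could be set only against the arrays with aspirin.

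Heat shock proteins are chaperones that bind unfolded proteins. HSP70 proteins hold and release clients in a cycle that J-domain proteins start and nucleotide exchange factors end, HSP90 proteins mature signalling clients, small heat shock proteins bind clients without ATP, and chaperonins fold them in a closed chamber. Under stress, trimers of Hsf1 bind heat shock elements, arrays of inverted GAA units, in the promoters of the inducible genes. Teprenone, also called geranylgeranylacetone, is known from cultured gastric cells and rat stomach as an inducer of HSP70.

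Promoter sequence was available for 6 of the 10 genes, as RefSeq windows of assembly GRCm38.p6 that run from 250 bases before the annotated start through its first 50 bases. The windows below are shown because they hold letters that match the heat shock element. Capitals mark matches of GAANNTTC, the short heat shock element, which reads the same on both strands, or of its 3-unit forms. Those hold GAA and TTC units in alternation, each set off from the next by a pair of any bases, either GAA, TTC, GAA or TTC, GAA, TTC. The forms are each other's reverse complement, were searched on both strands and contain the short form. Each sequence is written 5′ to 3′ on the strand of its gene.
Hspa1a, chr17:34972107-34972406, minus strand: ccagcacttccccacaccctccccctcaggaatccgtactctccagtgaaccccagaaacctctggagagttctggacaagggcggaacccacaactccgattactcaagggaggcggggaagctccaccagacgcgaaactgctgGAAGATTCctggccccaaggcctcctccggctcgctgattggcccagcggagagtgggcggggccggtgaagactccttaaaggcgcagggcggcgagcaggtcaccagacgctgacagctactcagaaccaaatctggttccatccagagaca
Hspb1, chr5:135887669-135887968, plus strand: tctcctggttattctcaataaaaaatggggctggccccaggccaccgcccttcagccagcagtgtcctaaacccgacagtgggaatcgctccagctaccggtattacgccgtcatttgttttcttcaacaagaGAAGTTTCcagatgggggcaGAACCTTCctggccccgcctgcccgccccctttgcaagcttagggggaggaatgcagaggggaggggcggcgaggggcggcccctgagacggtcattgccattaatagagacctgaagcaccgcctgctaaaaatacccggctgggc
Hsph1, chr5:149636266-149636565, minus strand: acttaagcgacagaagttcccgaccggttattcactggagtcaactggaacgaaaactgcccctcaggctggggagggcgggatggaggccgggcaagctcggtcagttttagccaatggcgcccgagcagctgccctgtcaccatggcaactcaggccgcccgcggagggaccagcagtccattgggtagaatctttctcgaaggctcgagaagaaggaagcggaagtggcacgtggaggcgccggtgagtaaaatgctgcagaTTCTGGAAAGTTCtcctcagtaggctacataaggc
Hspe1, chr1:55087898-55088197, plus strand: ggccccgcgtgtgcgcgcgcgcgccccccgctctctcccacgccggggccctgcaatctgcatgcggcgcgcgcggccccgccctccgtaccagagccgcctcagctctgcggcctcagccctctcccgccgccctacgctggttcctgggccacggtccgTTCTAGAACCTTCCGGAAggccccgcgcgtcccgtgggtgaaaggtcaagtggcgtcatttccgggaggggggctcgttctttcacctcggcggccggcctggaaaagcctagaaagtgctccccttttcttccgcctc

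The short element was found in the windows of 5 of the 6 genes, against 7.86% of all 32851 promoter windows of the same length. A 3-unit form was found for 3 of the 6, Hsph1, Hspd1 and Hspe1, against 0.603% of all windows. A gene was counted if any of its windows held a match, and Hsph1, Dnajb1 and Hspd1 had more than 1 window. The shares are over single windows, so genes and shares are not counted alike. Hspa1a held 1 short match, GAAGATTC, which began 104 bases before the start. Hspb1 held GAAGTTTC, beginning 117 bases before the start, and GAACCTTC, 97 bases before it. In Hsph1 the match TTCTGGAAAGTTC lay after the annotated start, beginning at base 16 in the window shown. Hspd1 and Hspe1 lie head to head, and 285 of the 300 bases of 1 Hspd1 window are those of the Hspe1 window on the other strand, so their shared run of overlapping elements, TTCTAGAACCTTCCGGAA as read from Hspe1, is a single site. Neither window of Dnajb1 held these letters. The Hspa1a window differed from that of its near copy Hspa1b at 4 of 300 bases. A match describes the letters only and shows no binding.

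The 5 arrays had nearly equal medians, from 6.94 to 6.98 on the log2 scale of the deposited values. All 8 measured heat shock genes passed the filter on low values, a mean of at least 7.41, the median of all genes, which left 9969 genes as the background for every count. Of 11 gastric markers measured 10 passed the filter, with a median level of 13.28 on every array and Muc5ac, the surface mucin, between 13.29 and 13.34, while the gastric lipase Lipf lay below the filter level, between 5.08 and 5.29. Of 10 intestinal markers 4 passed it, among them the galectin Lgals4, between 11.08 and 11.26, and the microvillus protein Vil1, between 8.12 and 8.20. The intestinal transcription factor Cdx2, between 6.40 and 6.43, and the mucin Muc2, at 6.59, did not. Markers of other tissues moved between arrays. For 15 hepatocyte markers the median level stood at 9.81 (GA+GA) and 9.17 (LG21+GA) without aspirin, and with it at 6.64 (GA+Asp), 7.15 (Tep+Asp) and 7.99 for LG21+Asp. In bulk tissue, fewer cells of a type and less RNA per cell cannot be told apart.

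Teprenone with aspirin, Tep+Asp against GA+Asp, is the comparison that addresses the proposed target. Only Hspb1 (also Hsp25, a small heat shock protein that binds unfolded clients and actin) stood apart. Hspb1 was at 10.41 in GA+GA, 10.37 in LG21+GA, 10.40 in GA+Asp, 10.71 in Tep+Asp and 10.41 in LG21+Asp. Tep+Asp was the high array and the other 4 lay within a narrow band below it. The difference to GA+Asp was 0.30 on the log2 scale, 1.23-fold. A difference of at least 0.2 upward (1.15-fold) was seen in 1 of the 8 heat shock genes and in 1.43% of the 9969 genes, and one in either direction in 2.62%. Differences at least as high as that of Hspb1 were seen in 0.8% of them. The other probe set that names Hspb1 alone gave 0.32, with 10.64 in Tep+Asp and between 10.29 and 10.32 on the other arrays.

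Hspa1a, the stress-inducible HSP70, differed little. It was at 8.18 in GA+GA, 8.22 in LG21+GA, 8.22 in GA+Asp, 8.28 in Tep+Asp and 8.22 in LG21+Asp. Tep+Asp was the highest array and GA+GA the lowest, and the other 3 were exactly equal. The difference between Tep+Asp and GA+Asp was 0.055, a level that 11.2% of the 9969 genes reached or passed. A probe set shared by Hspa1a and Hspa1b, which encode nearly the same protein, ran from 9.05 in LG21+Asp to 9.09 in Tep+Asp and gave a difference of 0.010. The signals of Hspa1a and Hspa1b may be mixed in either probe set, so both values are uncertain as to the gene.

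**Figure D1:**
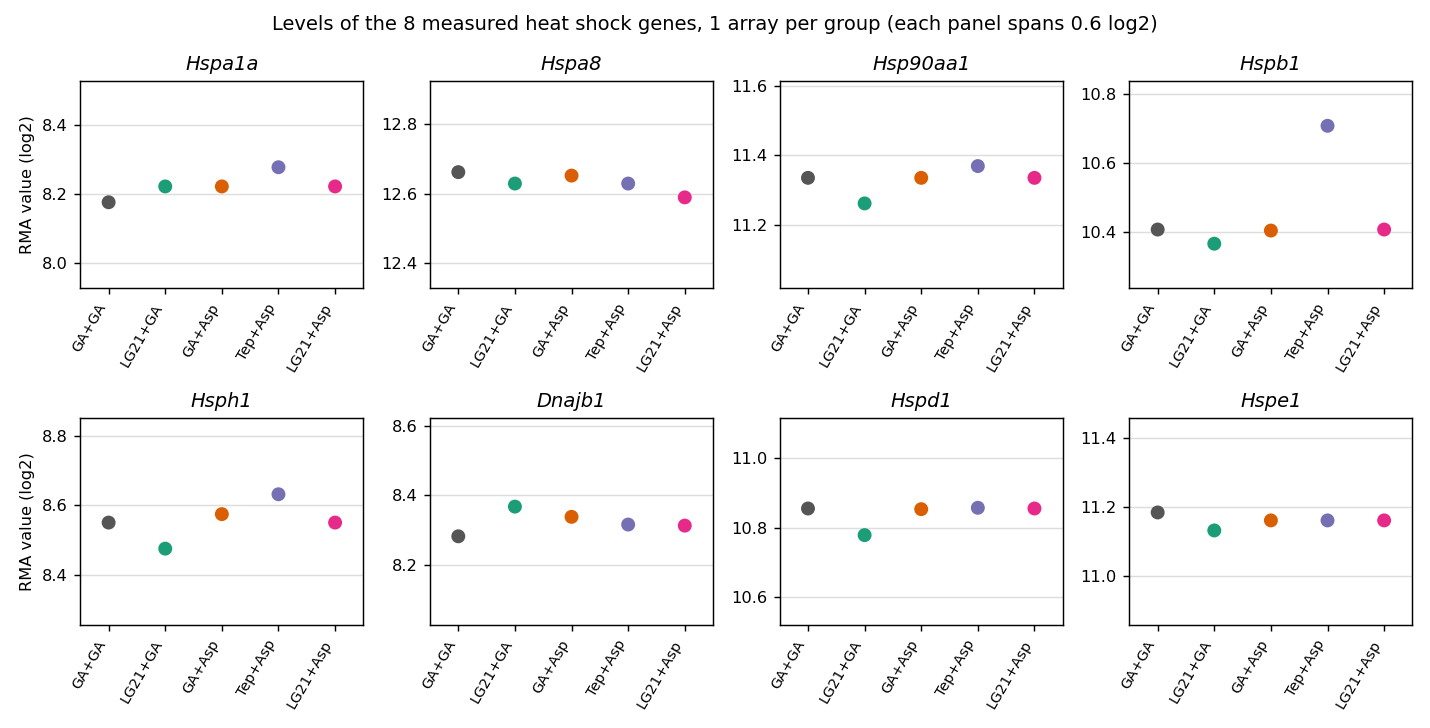
RMA value (log2) of each of the 8 measured heat shock genes on each of the 5 arrays, 1 point per array, with every panel spanning the same range of values. Hspb1 is higher in Tep+Asp, at 10.71, than on the other 4 arrays, and the remaining genes stay within 0.16 between their lowest and highest array.

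The co-chaperones of HSP70 were close to level between Tep+Asp and GA+Asp. Hsph1, an HSP110 that acts as a nucleotide exchange factor for HSP70, was at 8.55 in GA+GA, 8.48 in LG21+GA, 8.57 in GA+Asp, 8.63 in Tep+Asp and 8.55 in LG21+Asp. It was highest in Tep+Asp and lowest in LG21+GA, and the difference with teprenone was 0.058. Dnajb1, the J-domain protein that starts the HSP70 cycle, was at 8.28 in GA+GA, 8.37 in LG21+GA, 8.34 in GA+Asp, 8.32 in Tep+Asp and 8.31 in LG21+Asp. Its order was another one, highest in LG21+GA and lowest in the control, and it differed by -0.022 with teprenone.

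The abundant cytosolic chaperones showed no common direction with teprenone. Hsp90aa1, the stress-responsive cytosolic HSP90, was at 11.34 in GA+GA, GA+Asp and LG21+Asp, which were exactly equal, at 11.26 in LG21+GA and at 11.37 in Tep+Asp. The difference with teprenone was 0.034. Hspa8, the constitutive HSP70 that also uncoats clathrin vesicles, was at 12.66 in GA+GA, 12.63 in LG21+GA, 12.65 in GA+Asp, 12.63 in Tep+Asp and 12.59 in LG21+Asp, and differed by -0.023 with teprenone. Its values lay near the top of the scale, whose highest value was 13.87.

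The mitochondrial chaperonin pair was level as well. Hspd1, the HSP60 ring subunit, was at 10.85 in GA+GA, 10.78 in LG21+GA, 10.85 in GA+Asp, 10.86 in Tep+Asp and 10.85 in LG21+Asp. Hspe1, the HSP10 lid, was at 11.18 in GA+GA, 11.13 in LG21+GA and 11.16 on each of the 3 aspirin arrays, which were exactly equal. In both genes LG21+GA was the low array on the probe set used. The difference with teprenone was 0.0040 for Hspd1 and 0 for Hspe1.

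Over the 8 heat shock genes the median difference with teprenone was 0.019, with 5 above 0, 2 below and 1 equal. Over the 9969 genes the median was -0.0030, with 28.9% above 0 and 51.8% below. Tep+Asp was the strictly highest of the 5 arrays in 5 of the 8 heat shock genes, Hspa1a, Hsp90aa1, Hspb1, Hsph1 and Hspd1, and in 17.2% of the 9969 genes. This count was made after the values had been seen, 4 of the 5 differences are below 0.1, and Hspd1 left it when the mean of its probe sets was used or the arrays were normalized again. GA+Asp was the strictly highest array in 33.6% of the 9969 genes and in 0 of the 8. That count too was made with the values seen, and it was not repeated after normalizing again.

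**Figure D2:**
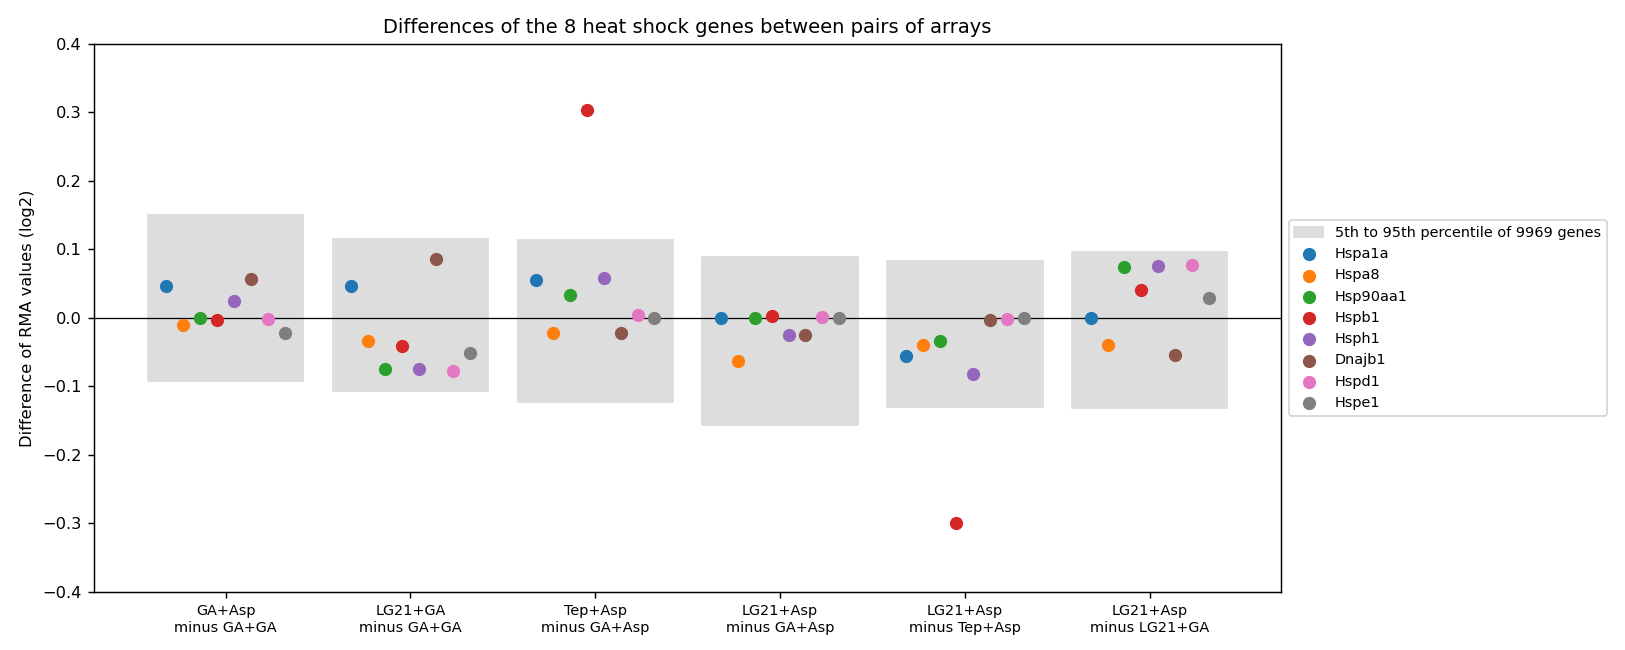
Differences of RMA values (log2) between 6 pairs of arrays, with 1 point for each of the 8 heat shock genes and grey boxes for the 5th to 95th percentile of the 9969 genes above the filter. Hspb1 lies outside the box in both comparisons that involve Tep+Asp, at 0.30 and -0.30, and every other point lies inside its box.

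The values of other tissue components moved with the Tep+Asp array too. The median level of the 14 measured markers of stratified squamous epithelium ran from 7.22 (LG21+Asp) to 9.04 (Tep+Asp). GA+GA lay at 8.73, GA+Asp at 8.51 and LG21+GA at 8.45, and 11 of the 14 were strictly highest in Tep+Asp. Such a median of levels depends on which genes lie in the middle. Taken gene by gene, the median difference from the control was only -0.0023 for LG21+GA and -0.051 for GA+Asp. From GA+Asp it was 0.57 for Tep+Asp and -0.71 for LG21+Asp. In LG21+Asp, 13 of the 14 were strictly lowest, as were 24.3% of the 9969 genes. The 10 smooth muscle markers had a median level of 10.79 in GA+GA, 10.83 in LG21+GA, 10.82 in GA+Asp, 10.90 in Tep+Asp and 10.83 in LG21+Asp. Of the 10, 8 were strictly highest in Tep+Asp, against the same 17.2% of the 9969 genes. Myh11, smooth muscle myosin, differed by 0.22 between Tep+Asp and GA+Asp. Between the same arrays 14 of 15 hepatocyte markers lay above 0, with a median difference of 0.58, against 28.9% of the 9969 genes above 0. Of 13 skeletal muscle markers, 4 of which passed the filter, 11 lay below 0, with a median of -0.22, against 51.8% of the 9969 genes. The part of these tissues in the Hspb1 difference in Tep+Asp was not tested.

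The genes nearest to Hspb1 in pattern were sought among 397 filtered genes whose highest and lowest arrays lay at least 0.3 apart, by the root mean square difference of values centred on each gene's mean over the 5 arrays. Cd44, the hyaluronan receptor, was nearest at 0.026. It stood at 7.87 in GA+GA, 7.86 in LG21+GA, 7.86 in GA+Asp, 8.14 in Tep+Asp and 7.83 in LG21+Asp. Cacna2d1, a subunit of voltage-gated calcium channels, followed at 0.029, the ubiquitin ligase Pdzrn3 and the matrix proteoglycan Vcan at 0.038 each, and Musk, a muscle receptor kinase, at 0.043. Their differences between Tep+Asp and GA+Asp were 0.28 for Cd44, 0.30 for Cacna2d1, 0.21 for Pdzrn3, 0.32 for Vcan and 0.23 for Musk. They were chosen over the same 5 arrays for this likeness.

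**Figure D3:**
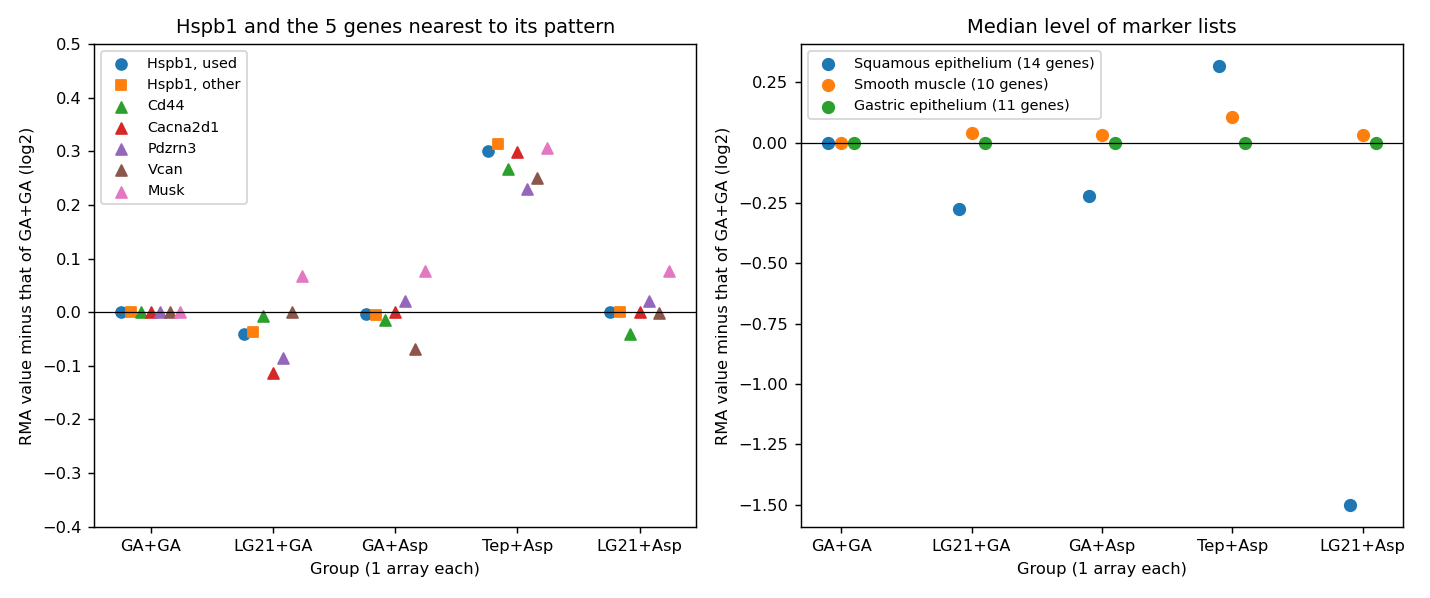
RMA values (log2) relative to the GA+GA array for both Hspb1 probe sets and the 5 genes nearest to its pattern (left), and for the median level of 3 marker lists (right), with 1 point per array. The Hspb1 probe sets lie 0.30 and 0.31 above the control in Tep+Asp, and the squamous median lies 0.32 above it in Tep+Asp and far below it in LG21+Asp, at a level of 7.22 against 8.73. The squamous point for LG21+GA lies low, though gene by gene the median difference from the control was -0.0023.

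Aspirin alone, GA+Asp against GA+GA, went with small differences in the heat shock genes. They ran from -0.023 for Hspe1 to 0.056 for Dnajb1, with a median of -0.00095. Of the 8, 3 lay above 0, 4 below and Hsp90aa1 was equal, and of the 9969 genes 58.3% lay above 0 and 23.5% below. Of the 8 genes 0 were at least 0.2 apart, as were 3.68% of the 9969 genes, whose median difference was 0.013. Hspa1a differed by 0.046 and Hsph1 by 0.024. Between these arrays 14 of 15 hepatocyte markers lay below 0, with a median difference of -3.02. Of 13 skeletal muscle markers, 4 of which passed the filter, 10 lay above 0, with a median of 0.13. The part of either tissue in the values of the heat shock genes was not tested. In mice given LG21, aspirin went with differences from -0.055 for Dnajb1 to 0.077 for Hspd1 (LG21+Asp against LG21+GA), with a median of 0.035. Here 5 lay above 0, 2 below and Hspa1a was equal, and 33.9% of the 9969 genes lay above 0 and 44.6% below. There too 0 of the 8 were 0.2 apart, against 3.08% of the 9969 genes. Dnajb1 differed in sign between the aspirin contrasts, 0.056 without and -0.055 with LG21. On the deposited values of the probe sets used, this was the widest interaction of the 8, at -0.11. For the interaction 5 of the 8 lay above 0 and 3 below, and 29.6% of the 9969 genes above and 65.2% below. Of the 8, 0 reached 0.2, against 7.01% of the 9969 genes, and at a limit of 0.1 only Dnajb1 did, against 27.1%. That ranking did not hold under the alternatives, where Hspd1 was the widest. The Hspd1 interaction was 0.16 with the mean of probe sets and 0.10 with either normalization, and its other probe set alone gave 0.25. Dnajb1 stood at -0.077 with quantile normalization and -0.086 with cyclic loess.

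LG21 without aspirin, LG21+GA against GA+GA, had 6 of the 8 heat shock genes lower and 2 higher. Hspd1 differed by -0.077, Hsph1 by -0.075, Hsp90aa1 by -0.074, Hspe1 by -0.052, Hspb1 by -0.041 and Hspa8 by -0.033, while Hspa1a (0.046) and Dnajb1 (0.086) lay higher. The median was -0.046, against 0 over the 9969 genes, of which 46.4% lay above 0 and 32.3% below. Each single difference was small, as 0 of the 8 reached 0.2, against 2.42% of the 9969 genes. LG21+GA was the strictly lowest of the 5 arrays in Hsp90aa1, Hspb1, Hsph1, Hspd1 and Hspe1, 5 of the 8, and in 16.5% of the 9969 genes. The same 5 genes were lowest there with the mean of all probe sets, with quantile normalization and with cyclic loess. The other Hspe1 probe set alone had GA+Asp lowest, with LG21+GA equal to Tep+Asp and LG21+Asp. The count of 5, like that for Tep+Asp, was made after the values had been seen. Between LG21+GA and the control 14 of 15 hepatocyte markers lay below 0, with a median difference of -0.67. Of 10 immune markers, 6 of which passed the filter, 7 lay above 0, with Mcpt1, a mast cell protease below the filter level, at 0.97. The part of these cell types in the lower values was not tested.

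LG21 with aspirin was set against aspirin alone and against teprenone with aspirin, the reference drug. Against GA+Asp, 0 of the 8 were 0.2 apart on the probe sets used, with 3.66% of the 9969 genes past that limit. A further Hspa8 probe set, not used, was past it at -0.26. Hspa1a, Hsp90aa1 and Hspe1 were exactly equal on both arrays, Hspb1 and Hspd1 were higher by 0.0034 and 0.0019, and Hspa8 was the farthest at -0.063, with Dnajb1 and Hsph1 the others below 0. Of the 9969 genes 23.7% lay above 0 and 58.2% below. Against Tep+Asp, 0 of the 8 lay above 0, 7 lay below and Hspe1 was equal, with a median of -0.037 against 0 over the 9969 genes, 30.9% of which lay above 0 and 47.4% below. This count depended on the processing. After quantile normalization or cyclic loess Dnajb1, Hspd1 and Hspe1 lay above 0, by at most 0.017. On the probe sets used, Hspb1 differed by -0.30, the only one of the 8 at least 0.2 lower, as were 1.87% of the 9969 genes. In either direction 2.66% were that far apart. Hsph1 followed at -0.082 and Hspa1a at -0.055. These comparisons share the Tep+Asp, GA+Asp or LG21+Asp array with those above, so their values are not independent of one another.

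The probe sets of a gene did not always give the same value. In all, 15 probe sets named 1 of the 8 genes alone, 5 genes had several, and 3 more named a heat shock gene beside others. The 3 probe sets of Hsp90aa1 gave like patterns, from -0.092 to -0.074 in LG21+GA and from 0.034 to 0.043 in Tep+Asp, relative to the control. For Hspa8 they did not. The probe set with the lowest level of the 3 stood at 12.06 in GA+GA, 11.89 in LG21+GA, 12.01 in GA+Asp, 11.96 in Tep+Asp and 11.75 in LG21+Asp. There LG21+Asp differed by -0.26 from GA+Asp and by -0.21 from Tep+Asp, where the one used gave -0.063 and -0.040. With that probe set Hspa8 would pass the 0.2 limit in both comparisons. Which probe set lies at a gene's own place in the genome was not examined.

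A second probe set of Hspd1 gave -0.20 for LG21+GA against the control, where the one used gave -0.077, and both had LG21+GA as the lowest array. The probe sets of Hspe1 lay between -0.052 and -0.023 relative to the control on every other array. In the one not used, GA+Asp was lowest at -0.041, and LG21+GA, Tep+Asp and LG21+Asp were equal at -0.039. A pair of probe sets that name Hspa8 together with Snord14c and Snord14d, small nucleolar RNAs encoded in its introns, stood higher in GA+Asp than in the control by 0.26 each. On the other 4 arrays these lay between 8.97 and 9.03. The probe sets naming Hspa8 alone gave between -0.049 and -0.011 for the same pair of arrays.

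**Figure D4:**
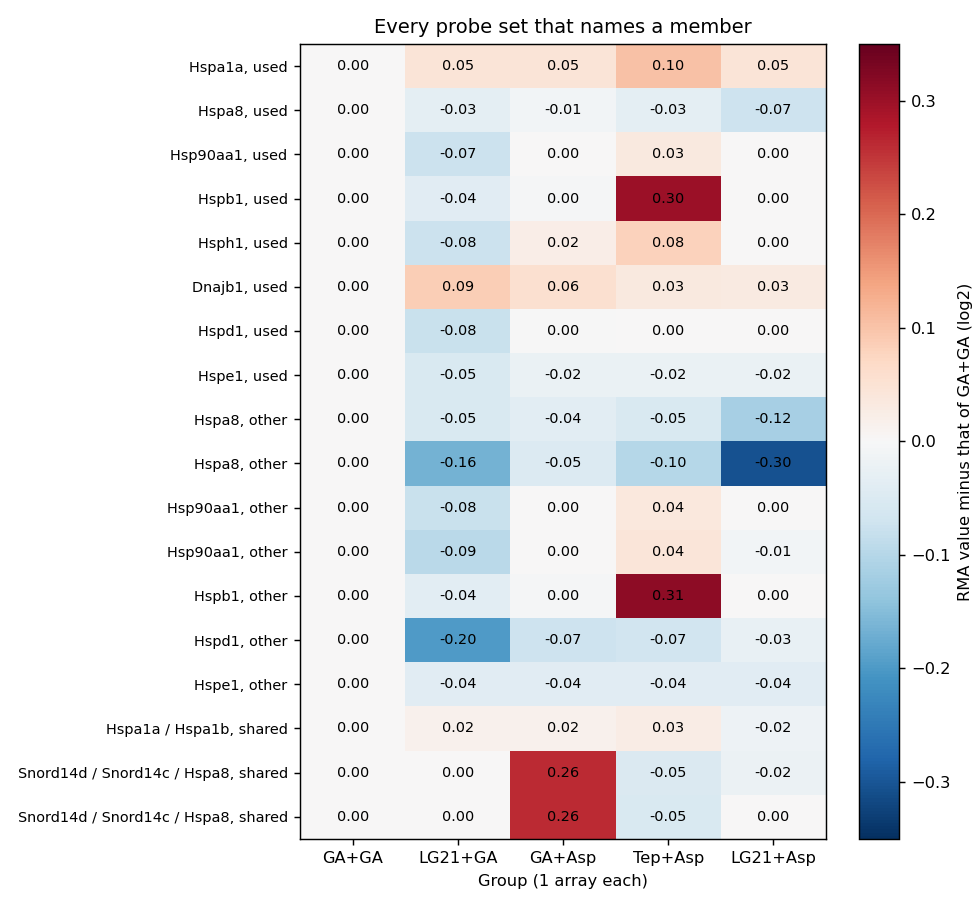
Every probe set that names a heat shock gene, in rows, as its RMA value (log2) minus that of the GA+GA array, in columns by group. The rows marked used give the reported values, those marked other are further probe sets of the same gene, and those marked shared name several genes. Both Hspb1 rows stand out in Tep+Asp, at 0.30 and 0.31, 1 Hspa8 row in LG21+Asp, at -0.31, and both Snord14 rows in GA+Asp, at 0.26.

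Few genes of the wider chaperone network differed by 0.2 or more, and few of all genes did. The span from lowest to highest array had a 90th percentile of 0.22 over the 9969 genes. Counts over these lists take in measured genes below the filter level, while the shares beside them are of genes above it. Of the other small heat shock proteins all 9 were measured and 4 passed the filter. With teprenone 0 of the 9 were at least 0.2 from GA+Asp, against 2.62% of the 9969 genes, and their median difference was 0. Cryab, alpha B-crystallin, was at 9.21 in GA+GA, LG21+GA and GA+Asp, at 9.34 in Tep+Asp and at 9.03 in LG21+Asp. Hspb6, a small heat shock protein of muscle, was at 9.81 in GA+GA, 9.74 in LG21+GA, 9.73 in GA+Asp, 9.83 in Tep+Asp and 9.61 in LG21+Asp. Both had Tep+Asp as the high and LG21+Asp as the low array. Both were at least 0.2 lower in LG21+Asp than in Tep+Asp (-0.31 and -0.22), as were 1.87% of the 9969 genes. Hspb7, of heart and muscle, was highest in Tep+Asp too, at 8.25, and lowest in LG21+GA, at 7.99.

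Of the 8 other HSP70 and HSP110 genes measured, 5 passed the filter. Among the 8, 0 were 0.2 apart with teprenone, 6 lay above 0 and 2 below, and the median was 0.045. Of the 9969 genes 2.62% were that far apart, 28.9% lay above 0 and 51.8% below. The largest upward differences of the list, up to 0.14, were of genes below the filter level. Hspa13, an HSP70 of microsomes, varied most. It was at 8.84 in GA+GA, 8.67 in LG21+GA, 8.93 in GA+Asp, 8.97 in Tep+Asp and 8.84 in LG21+Asp. Of 16 further J-domain genes 0 were 0.2 apart in any of the 6 comparisons. In each comparison alone, between 2.42% and 3.68% of the 9969 genes were, so few would be looked for among 16. Dnajb12 was highest in LG21+GA, 0.14 above the control, and Dnaja1, another J-domain partner of cytosolic HSP70, differed by -0.11 from it there.

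With aspirin alone 17 of 21 co-chaperones measured lay above 0 and 2 below, with a median of 0.028 and 0 at least 0.2 apart, against 58.3%, 23.5% and 3.68% of the 9969 genes. With teprenone 0 of the 21 were 0.2 apart, 3 lay above 0 and 15 below, against 2.62%, 28.9% and 51.8% of the 9969 genes, and the median was -0.0064. Bag3, a stress-inducible exchange factor, was at 9.40 in GA+GA, 9.51 in LG21+GA, 9.56 in GA+Asp, 9.51 in Tep+Asp and 9.51 in LG21+Asp. Chordc1, a heat-inducible HSP90 co-chaperone, was at 9.03 in GA+GA, 8.79 in LG21+GA, 9.08 in GA+Asp, 9.09 in Tep+Asp and 8.92 in LG21+Asp. Chordc1 was the only co-chaperone at least 0.2 apart in any of the 6 comparisons, at -0.24 for LG21 alone, where 2.42% of the 9969 genes were. LG21+GA was its low array, as in 5 of the 8 heat shock genes. Cdc37, the kinase adaptor of HSP90, was lowest in Tep+Asp at 8.76 and highest in LG21+GA at 8.97. Fkbp5, an HSP90 co-chaperone that glucocorticoids induce, was highest in GA+Asp at 9.66 and lowest in the control at 9.50.

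Of 16 genes other than the 10 that are known to be induced through Hsf1, 13 were measured, 11 of which the lists above or that of endoplasmic reticulum chaperones also hold. With teprenone 0 of the 13 were 0.2 apart, 6 lay above 0, 4 below and 3 were equal, with a median of 0, where 2.62% of the 9969 genes were 0.2 apart, 28.9% lay above 0 and 51.8% below. Of the heat shock factors themselves, Hsf2 stood between 7.92 in LG21+Asp and 8.03 in GA+Asp, and Hsf4 between 7.40 and 7.45. Hsbp1, which binds Hsf1 and is not such a factor, stood between 10.94 and 10.99. Of 6 genes measured for these factors and their binding proteins, 3 passed the filter. With teprenone 1 of the 6 lay above 0 and 5 below, with a median of -0.059, and 0 were 0.2 apart.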

How the data were processed

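Per the labels, total RNA was isolated with a spin column kit, amplified, labelled with biotin and hybridised to 5 arrays. The authors summarised probe sets by RMA in Expression Console, per the labels, and deposited values taken here as log2 from their range, 1.32 to 13.87, the scale not being stated. The series' design text names the Exon Array Computational Tool instead. No source used here gives versions or a genome build, and no detection calls were used. The number of arrays limits the precision.

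Of 35557 probe sets, 21789 had 1 gene symbol in the platform annotation, 1621 several and 12147 none. By gene identifier 21698 matched RefSeq. Values were subtracted within 6 array pairs, and for the LG21 by aspirin interaction, in Python 3.11.15 with pandas 2.3.3. The counting was tested on simulated data. Genes outside the 10 came from fixed lists, named for at least 0.2 in a comparison, for the largest spans (up to 4 a list) or for likeness to Hspb1, and a few markers, chosen with their values seen, to check the tissue. Members, lists and the 0.2 limit were chosen with earlier results of these data known. Alternatives were filters (none, 75th percentile), limits of 0.1 and 0.3, the mean in place of the median, the mean of probe sets, and quantile normalization and cyclic loess (3 iterations, limma 3.58.1).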

Additional observations from a re-analysis of the deposited data

How the results depend on the processing

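The median differences of the 8 heat shock genes moved by less than the spread over the 9969 genes (a robust SD of 0.035 to 0.071) under every alternative tried. That spread is wider than most of these medians, so the check is loose. With teprenone the median ran from 0.0040 with the 75th percentile filter to 0.051 for the mean in its place. For LG21+Asp against GA+Asp it ran from -0.013 for the mean to 0.023 with quantile normalization. The number at least 0.2 apart changed only with the limit. At 0.3 it fell from 1 to 0 for LG21+Asp against Tep+Asp, where Hspb1 stood at -0.30, and at 0.1 it went from 0 to 1 for the interaction, through Dnajb1. For Hspb1 the difference with teprenone ran from 0.30 to 0.33 and for Hspa1a from 0.055 to 0.065 over the mean of probe sets and both normalizations. The mean of probe sets moved Hspa8 to -0.13 for LG21+Asp against GA+Asp and Hspd1 to -0.14 for LG21 alone. Counts of genes strictly highest in Tep+Asp were 5 as reported and 4 under these alternatives, which were added after seeing the data. Under the 75th percentile filter 5 of the 8 genes were left. Shares of genes above and below 0 were counted on the deposited values only, and normalizing again shifted the medians over all filtered genes. With quantile normalization and cyclic loess, in that order, that median was 0.011 and -0.0045 for aspirin alone. For LG21+Asp against GA+Asp it went from -0.013 to 0.0068 and 0.0028, and for the interaction from -0.028 to -0.0047 and -0.0031. No paired analysis was possible because each group had 1 array, and no replicate could be left out. Levels near the top of the scale and exact ties, present in 7 of the 8 genes and in 68.9% of the 9969, limit small differences.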

Other observations

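Chaperones of the endoplasmic reticulum, which answer to another stress pathway, gave 1 difference past 0.2 with aspirin alone. Dnajb9, a J-domain partner of the luminal HSP70, was at 9.96 in GA+GA, 9.97 in LG21+GA, 10.23 in GA+Asp, 10.21 in Tep+Asp and 10.11 in LG21+Asp. All 3 aspirin arrays lay above both arrays without aspirin, with a difference of 0.27 for aspirin alone and 0.14 in LG21-treated mice. Of the 14 genes of the list 1 was at least 0.2 higher with aspirin alone and the median difference was 0, where 3.68% of the 9969 genes were 0.2 apart in either direction. Sil1, an exchange factor of the luminal HSP70, was highest in GA+GA at 9.16 and lowest in Tep+Asp at 8.98. Pdia3, a disulfide isomerase, was highest in the control at 11.40 and lowest in LG21+Asp at 11.23.

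Of the 14 subunits of the cytosolic chaperonin TRiC and of prefoldin, 11 lay above 0 with aspirin alone, with a median of 0.033, where 58.3% of the 9969 genes lay above 0. Pfdn5 was 0.17 above the control. Cct3 was highest in GA+Asp at 9.72 and lowest in Tep+Asp at 9.54, a difference of -0.18 with teprenone. Cct7 was the only one at least 0.2 apart between a pair of arrays, at -0.20 for LG21+Asp against GA+Asp, where 3.66% of the 9969 genes were. Of the 10 other mitochondrial chaperones and proteases 6 lay above 0 with aspirin alone, up to 0.11, and 0 below, against 58.3% and 23.5% of the 9969 genes, and Clpb varied most, from 9.21 in LG21+Asp to 9.33 in GA+Asp.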
